A study of Mus musculus with 69 samples.

Results

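DNA methylation writers and erasers were followed through bulk RNA sequencing of mouse embryonic stem (mES) cells and of the mosaic gastruloids grown from them. The 9 genes were taken by symbol from the count table, which holds 55367 gene symbols. They are Dnmt1, Uhrf1, Dnmt3a, Dnmt3b, Dnmt3l, Tet1, Tet2, Tet3 and Tdg, and each had counts in all 69 libraries, with a lowest raw count of 270 for Tet2 in any library. The cells were E14Tg2A mES cells, a male mouse line. WT–mCherry is a clone with H2B–mCherry under the EF1α promoter, WT–emiRFP is a clone with H2B–emiRFP670 under the CAG promoter, and p53KO–emiRFP is a clone derived from WT–emiRFP in which both Trp53 alleles carry a frameshift insertion. The p53KO genotype was thus represented by a single clone. At 0 h the 3 clones were sampled as mES cells. Gastruloids were seeded with 150 WT–mCherry cells and either 150 WT–emiRFP cells (WT + WT) or 25 p53KO–emiRFP cells (WT + p53KO). Those kept beyond 48 h received the Wnt agonist CHIR99021 between 48 and 72 h, so the 48 h samples came before that treatment. Many gastruloids were pooled before the 2 colours were sorted at 48, 72, 96, 120 and 144 h. The labels thus give 23 conditions with 3 replicates each, and in the account of changes over time a WT library is any of the 6 WT libraries at 0 h or of the 9 at each later time.

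Cytosines in CpG dinucleotides carry most DNA methylation in mammals. The methyl groups are copied after each round of replication by Dnmt1, which Uhrf1 brings to half-methylated CpGs, and new ones are placed by Dnmt3a and Dnmt3b, assisted by the catalytically inactive Dnmt3l. Tet1, Tet2 and Tet3 oxidise methylated cytosine, and the glycosylase Tdg cuts out the more oxidised forms so that base excision repair can restore an unmodified cytosine. When naive pluripotent cells pass to the formative state that resembles the epiblast of the implanting embryo, genome-wide methylation is known to rise, and in primordial germ cells it is known to be erased.

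Libraries had between 26722541 and 72981570 counts, with a median of 53098728. Values are normalized counts, that is, counts divided by median-of-ratios size factors over all 69 libraries. Trp53, the targeted gene, had condition means of 1621 to 2484 normalized counts in p53KO–emiRFP cells and of 14610 to 25497 in WT cells. One library stood apart for long transcripts. In the first WT–emiRFP mES cell replicate, 1351 genes with at least 10 kb of exons were lower than in the other 2 replicates by a median log2 difference of -0.37, and 4174 genes under 3 kb were higher by 0.23. The Tet genes are long, and this library had 15159 normalized counts of Tet1 against 30728 and 33691 in the other 2. Results printed for 0 h are therefore also given without that replicate where the call or direction changes or the log2 value moves by over 0.1. Sorted WT–mCherry libraries held some RNA of emiRFP cells, estimated from H2bc14, a histone transcript at 7.24 normalized counts in WT–mCherry mES cells and at 8359 to 9941 in the emiRFP clones. The estimate was 0.191% to 2.12% beside WT cells and rose beside p53KO cells from at most 0.41% at 48 h to between 2.39% and 16.9% at 144 h.

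Compared per kilobase of exon, Dnmt3l and the maintenance pair led in WT cells at 144 h, and in WT mES cells Dnmt3a was next to last. In WT mES cells the mean level per kb was highest for Dnmt3l (9862 normalized counts per kb), followed by Uhrf1 (6604), Dnmt3b (3450) and Dnmt1 (3251). Tet1 (1840) was the leading eraser, and Tet2 (565), Tdg (453), Dnmt3a (333) and Tet3, the last of the 9, were lower. At 48 h Dnmt3b led with 37748 normalized counts per kb, and Tet2 was last with 26.4. At 144 h Uhrf1 (5949), Dnmt1 (2934) and Dnmt3l (2892) led, and Tet2 (278) and Tet3 (152) were last. Lengths were those of all annotated exons of a gene together, so genes with alternative ends are understated on this scale.

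**Figure D1:**
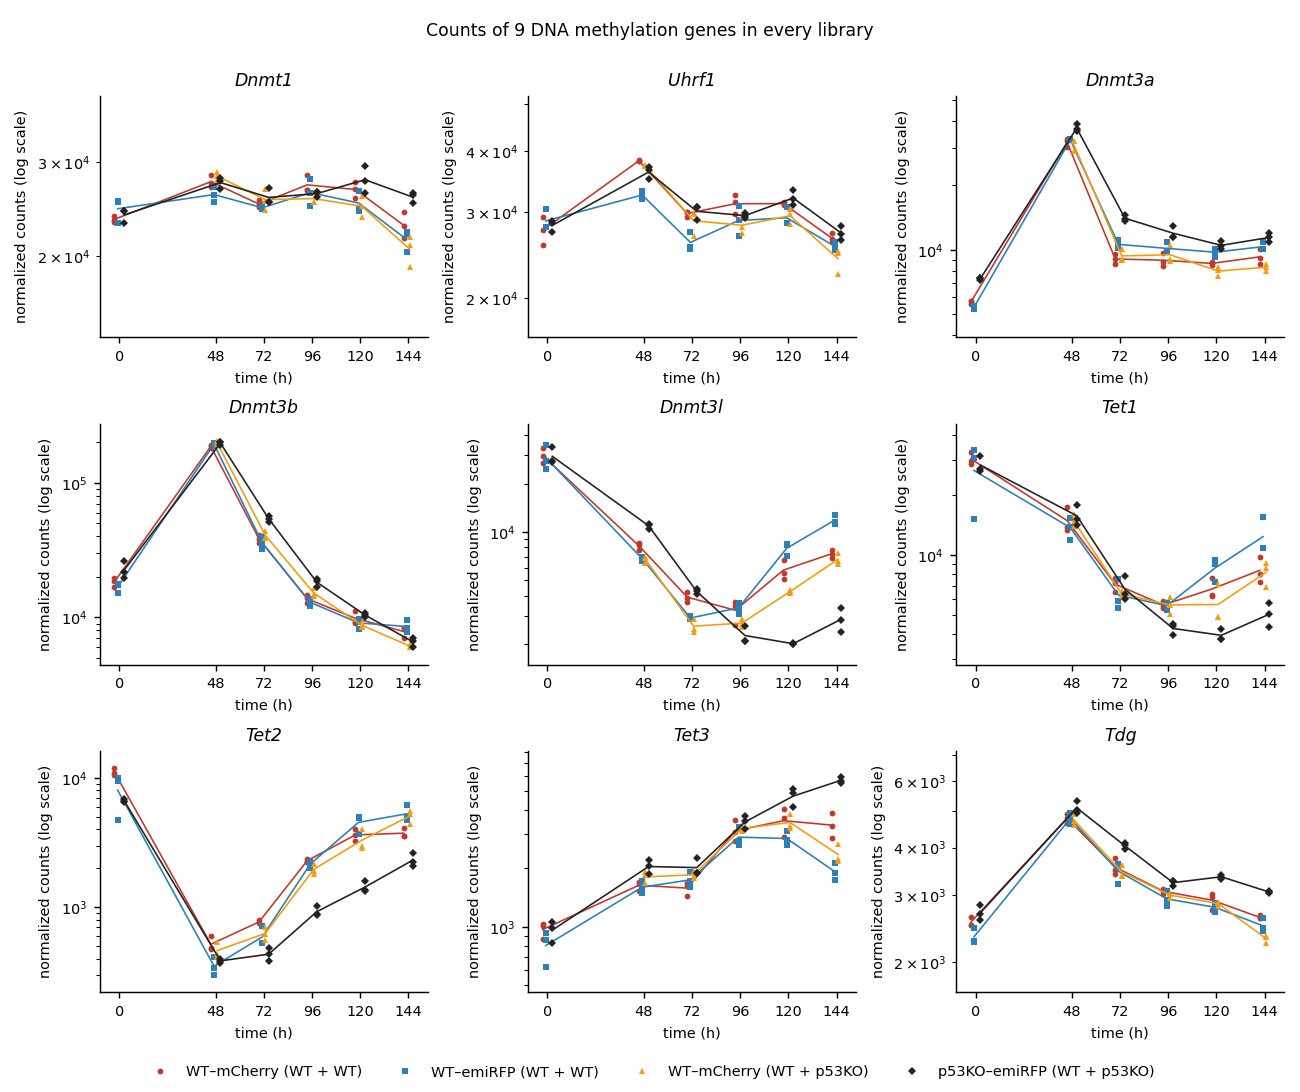
Normalized counts of the 9 genes (vertical axes, log scales that differ between panels) against time in hours, with 1 point per library and lines through the means of 3 replicates. Dnmt3a and Dnmt3b peak at 48 h in every population, Tet2 has its lowest values at 48 and 72 h, and the p53KO–emiRFP libraries (black) lie apart from all others for Dnmt3l, Tet1, Tet2 and Tet3 at 120 and 144 h.

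Between the condition with the highest mean and that with the lowest, Dnmt1 differed 1.37-fold and Uhrf1 1.59-fold, the smallest ranges of the 9 genes. Tdg followed with 2.21-fold. The ranges of Dnmt3a (6.86-fold), Tet3 (7.12-fold), Tet1 (7.69-fold) and Dnmt3l (14.9-fold) were wider, and those of Tet2 (31.4-fold) and Dnmt3b (32.4-fold) the widest. The spread between replicates had a median coefficient of variation of 3.09% to 4.46% for Tdg, Dnmt1, Uhrf1 and Dnmt3a. It was 6.72% for Dnmt3b, 7.23% for Dnmt3l and 9.36% to 11.8% for the 3 Tet genes.

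Dnmt1 and Uhrf1, the maintenance pair, rose together between 0 and 48 h and fell together between 48 and 72 h and between 120 and 144 h. Changes over time were tested in WT cells as the mean of the WT populations at one time against the next, with edgeR's quasi-likelihood test and Benjamini-Hochberg adjustment over all genes, and log2 differences are given with their standard error (SE). Dnmt1 had a lowest, median and highest WT library of 23040, 23567 and 25332 normalized counts at 0 h, and of 25238, 27389 and 28665 at 48 h. The log2 difference was 0.19 (SE 0.03, adjusted p = 7.2e-07), and 1 library at 0 h exceeded the lowest library at 48 h. Uhrf1 had WT libraries at 25677, 27921 and 30396 normalized counts at 0 h and at 31835, 37271 and 38315 at 48 h, with no overlap. Its log2 difference was 0.35 (SE 0.03, adjusted p = 9.0e-15). From 48 to 72 h Uhrf1 fell by 0.35 on the log2 scale (SE 0.03, adjusted p = 1.4e-16) and Dnmt1 by 0.12 (SE 0.03, adjusted p = 1.4e-04). Dnmt1 was higher again at 96 h by 0.07 (SE 0.03, adjusted p = 0.022), a call lost without any 1 replicate. From 120 to 144 h each fell by 0.24 on the log2 scale (SE 0.03, adjusted p = 1.8e-10 for Dnmt1 and 1.5e-10 for Uhrf1).

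The DNA replication genes, 16 genes of S phase such as Mcm2, Pcna and Ccne1, mostly went the same way in these 3 steps. Of the 16, 13 rose and 0 fell in WT cells from 0 to 48 h, 1 rose and 15 fell from 48 to 72 h, and 0 rose and 14 fell from 120 to 144 h. The list's median log2 differences were 0.30, -0.23 and -0.24, against -0.03, -0.02 and 0.01 for all genes, of which 70.3%, 66.8% and 55.5% passed in either direction. Over the 23 condition means, Pearson's r between Dnmt1 and Uhrf1 was 0.835. Among 14078 genes the profiles most like that of Uhrf1 were Ddx39b (r = 0.919), Tk1 (0.914) and Nasp (0.909), and the closest to Dnmt1 were Ipo11 (0.942), Scaf8 (0.940) and Memo1 (0.927). These conditions share clones and replicate experiments, so the coefficients are descriptions.

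The promoters of Dnmt1 and Uhrf1 are shown because they were the only members of the 9 whose window held an E2F motif, the binding site of factors of the S phase programme. All 9 genes matched a RefSeq promoter entry on GRCm38.p6. The window was the 250 bases before the start, and where RefSeq had several starts, the one nearest to most Gencode transcript starts was used. E2F was searched as TTTCCCGC, TTTGGCGC, TTTCGCGC or TTTGCCGC on both strands, and 1.86% of 32817 windows of that length held one. Capitals mark the motif, which lies 219 bases before the start used in Dnmt1 (chr9:20952624-20952873, minus strand) and 185 bases before that used in Uhrf1 (chr17:56304063-56304312, plus strand). Dnmt1 has other RefSeq starts at 20952979 and 20959888, and Uhrf1 has one at 56303337. All of these lie upstream of the whole window shown, so the motif is downstream of them and is not promoter sequence for transcripts that begin there.
Dnmt1: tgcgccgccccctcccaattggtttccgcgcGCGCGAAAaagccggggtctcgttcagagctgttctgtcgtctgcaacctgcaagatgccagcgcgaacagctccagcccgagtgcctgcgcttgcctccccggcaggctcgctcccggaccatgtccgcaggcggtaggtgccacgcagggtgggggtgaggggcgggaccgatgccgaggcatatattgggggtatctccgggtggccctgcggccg
Uhrf1: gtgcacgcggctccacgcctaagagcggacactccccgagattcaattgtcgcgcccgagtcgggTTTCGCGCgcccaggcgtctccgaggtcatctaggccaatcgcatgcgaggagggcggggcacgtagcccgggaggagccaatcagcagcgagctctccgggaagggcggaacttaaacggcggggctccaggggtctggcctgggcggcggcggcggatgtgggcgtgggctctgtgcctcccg

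Dnmt3a and Dnmt3b, the de novo methyltransferases, peaked sharply at 48 h. Dnmt3b WT libraries had a lowest, median and highest value of 15228, 17622 and 19781 normalized counts at 0 h, and of 181512, 194361 and 203152 at 48 h. The sets did not overlap, and the log2 difference of 3.45 (SE 0.06, adjusted p = 7.8e-46) was followed by falls at all 4 later steps. From 48 to 72 h Dnmt3b fell by 2.33 on the log2 scale (SE 0.05, adjusted p = 1.0e-41), and at 144 h its lowest, median and highest WT libraries were at 5997, 7739 and 9543 normalized counts, all below the mES cells. Dnmt3a followed with a smaller peak that settled above its starting level. Its lowest, median and highest WT libraries had 5280, 5519 and 5759 normalized counts at 0 h, 29008, 32374 and 32808 at 48 h, then 7950, 9151 and 10861 by 144 h. The log2 difference was 2.52 (SE 0.04, adjusted p = 1.2e-47) from 0 to 48 h and 0.74 (SE 0.04, adjusted p = 6.2e-24) from 0 to 144 h, against -1.24 (SE 0.05, adjusted p = 8.5e-28) for Dnmt3b over the same interval. Per kb, the log2 ratio of Dnmt3b to Dnmt3a in WT–emiRFP cells started at 3.34 ± 0.14, reached 4.28 ± 0.03 at 48 h and ended at 1.42 ± 0.10 (SD, n = 3).

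Dnmt3l, the cofactor, did the opposite of its partners from 0 to 48 h and recovered late. WT libraries had a lowest, median and highest value of 24667, 28527 and 34868 normalized counts at 0 h, 6390, 6935 and 8486 at 48 h, then 2394, 2873 and 4204 by 72 h. Dnmt3l fell by 2.03 on the log2 scale (SE 0.07, adjusted p = 1.0e-33; -1.91 without replicate 1) and then by 1.22 (SE 0.06, adjusted p = 1.0e-24). It rose from 96 to 120 h by 0.91 (SE 0.06, adjusted p = 5.8e-19) and from 120 to 144 h by 0.53 (SE 0.06, adjusted p = 9.9e-11). The profile most like it was Rnf125 (r = 0.984 over 23 conditions), and Dnmt3b was most like Naf1 (0.993) and Dnmt3a most like Acsl4 (0.971). Aire lies on the opposite strand and shares 67 exonic bases with Dnmt3l, with a mean of 1104 counts against 8383. The strand setting of the counting is not given in the sources used here, so reads in that overlap cannot be told apart.

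The 2 genes whose windows differ most in CpG content were Tet2 and Dnmt3l, and the sequences are shown because both genes fell at 48 h and rose again later while their windows lie at the 2 ends of the CpG range. The window of Tet2 (chr3:133544391-133544640, minus strand) held 51 CpGs, more than 99.9% of windows, and that of Dnmt3l (chr10:78055085-78055334, plus strand) held 3, more than 29.1%. Dnmt3b (chr2:153649199-153649448, plus strand), which rose where these fell, held 21, and the median window held 6. Capitals mark the CpGs, the sites that DNA methylation can occupy.
Tet2: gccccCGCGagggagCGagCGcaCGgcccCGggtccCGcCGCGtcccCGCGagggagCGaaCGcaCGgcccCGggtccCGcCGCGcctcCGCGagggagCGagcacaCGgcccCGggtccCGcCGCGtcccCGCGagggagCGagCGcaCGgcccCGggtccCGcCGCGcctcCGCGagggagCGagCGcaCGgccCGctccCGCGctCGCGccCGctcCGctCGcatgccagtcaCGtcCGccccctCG
Dnmt3l: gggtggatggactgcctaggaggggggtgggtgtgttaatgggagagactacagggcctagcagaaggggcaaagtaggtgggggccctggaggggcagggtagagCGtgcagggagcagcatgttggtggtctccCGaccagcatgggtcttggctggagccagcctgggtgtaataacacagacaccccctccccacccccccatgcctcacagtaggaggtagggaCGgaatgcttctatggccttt
Dnmt3b: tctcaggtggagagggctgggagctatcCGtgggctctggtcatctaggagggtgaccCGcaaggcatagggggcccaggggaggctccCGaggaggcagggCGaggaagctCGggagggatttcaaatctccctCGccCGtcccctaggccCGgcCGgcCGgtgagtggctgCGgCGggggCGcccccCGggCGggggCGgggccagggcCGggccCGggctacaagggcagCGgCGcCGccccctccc

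The 3 Tet genes, whose proteins start the removal of methyl groups, went 3 different ways. Tet2 nearly vanished at 48 h. Its WT libraries had 4750, 10214 and 11837 normalized counts at 0 h (lowest, median and highest, the lowest being the library that stood apart), and 298, 440 and 599 at 48 h. Tet2 fell by 4.42 on the log2 scale (SE 0.10, adjusted p = 6.8e-41; -4.54 without replicate 1), then rose at all 4 later steps and reached 3531, 4717 and 6124 at 144 h. Tet1, the main Tet gene of mES cells, fell at the first 3 steps, by 0.97 (SE 0.10, adjusted p = 3.3e-12), 1.14 (SE 0.10, adjusted p = 1.1e-15) and 0.24 (SE 0.10, adjusted p = 0.030, lost without any of the 3 replicates), and rose at the last 2, the call from 96 to 120 h being lost without replicate 3. Without replicate 1 the first fall of Tet1 was -1.09. Tet3 rose from 0 to 48 h by 0.93 (SE 0.08, adjusted p = 1.6e-15) and from 72 to 96 h by 0.84 (SE 0.07, adjusted p = 3.0e-16). It fell from 120 to 144 h by 0.40 (SE 0.07, adjusted p = 9.7e-07). The closest profiles were Helb for Tet1 (r = 0.990), Zfp607b for Tet2 (0.987) and Dbn1 for Tet3 (0.985), and Prdm14, a germ cell and naive pluripotency regulator, was second for Tet2 (0.976).

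Tdg rose from 0 to 48 h, when its WT libraries went from 2256, 2476 and 2633 normalized counts (lowest, median and highest) to 4601, 4795 and 4924. The log2 difference was 0.97 (SE 0.03, adjusted p = 8.3e-35). It fell at each of the 4 later steps, by at most 0.45, though the call from 96 to 120 h was lost without replicate 2 or 3 and without the filter on low counts, and at 144 h the log2 difference from 0 h was 0.02 and did not pass the test. The pseudogene Tdg-ps2 had a mean of 2962 counts against 3328 for Tdg and the most similar profile of all genes (r = 0.987), so reads may be split between them. With both counted as 1 gene, the first step was 0.95.

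Of the 45 tests of the 9 genes over the 5 WT steps, 38 passed the threshold of 0.05. All 9 genes changed from 0 to 48 h, where 70.3% of all genes tested passed. From 48 to 72 h 8 changed (background 66.8%), from 72 to 96 h 6 (58.7%), from 96 to 120 h 6 (56.9%) and from 120 to 144 h 9 (55.5%). From 0 to 144 h 8 of the 9 differed in WT cells (74.6%). In p53KO–emiRFP cells 9, 6, 7, 5 and 5 of the 9 changed over the 5 steps (59.5%, 46.4%, 44.6%, 35.0% and 22.7%) and 8 from 0 to 144 h (73.8%). The median absolute log2 difference of the 9 genes in WT cells from 0 to 48 h was 0.97, against 0.47 over all genes.

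Markers of cell state moved beside these changes. The 8 naive pluripotency markers, Nanog, Klf2, Klf4, Esrrb, Tfcp2l1, Zfp42, Tbx3 and Nr0b1, all fell in WT cells from 0 to 48 h with a median log2 difference of -4.20. Of the 6 formative and primed markers 4 rose and 1 fell, with a median of 3.04. From 96 to 120 h 7 of the 8 naive markers, 5 of the 6 primordial germ cell markers and 14 of 15 germline genes with methylated promoters rose, the latter a list of genes such as Dazl and Hormad1 that DNA methylation is known to silence in somatic cells. Their part in the levels of the 9 genes was not tested. In a bulk library, fewer cells of a type and less RNA per cell cannot be told apart.

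The comparison of p53KO–emiRFP with WT–emiRFP cells asks how loss of p53 in a competing clone goes with these levels, and from 48 h on the p53KO samples came from WT + p53KO gastruloids and the WT samples from WT + WT gastruloids, while at 0 h both were mES cell clones. WT libraries here are the 3 WT–emiRFP libraries of that time unless all WT populations are named. Dnmt3a was higher in p53KO cells up to 96 h and Dnmt3b at 72 and 96 h, and Dnmt3l, Tet1 and Tet2 were lower and Tet3 higher late. In p53KO–emiRFP cells 2 of the 9 genes differed at 0 h, where 6.14% of all genes tested passed. The count was 4 at 48 h (22.1%) and 6 at 72 h (29.1%), 96 h (23.3%) and 120 h (51.0%), and it reached 7 at 144 h (65.4%). At 120 and 144 h these shares stand beside a background in which most genes differed. The median absolute log2 difference of the 9 genes was 0.27 at 120 h and 0.38 at 144 h, against 0.33 and 0.51 over all genes. With the replicate number as a block, 40 of the 54 tests passed in place of 31. The background was then larger at every time. It was 1801 genes in place of 1129 at 0 h, 7259 in place of 3896 at 48 h and 6900 in place of 5147 at 72 h. Later it was 7081 in place of 4269 at 96 h, 11653 in place of 9631 at 120 h and 13689 in place of 12675 at 144 h.

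**Figure D2:**
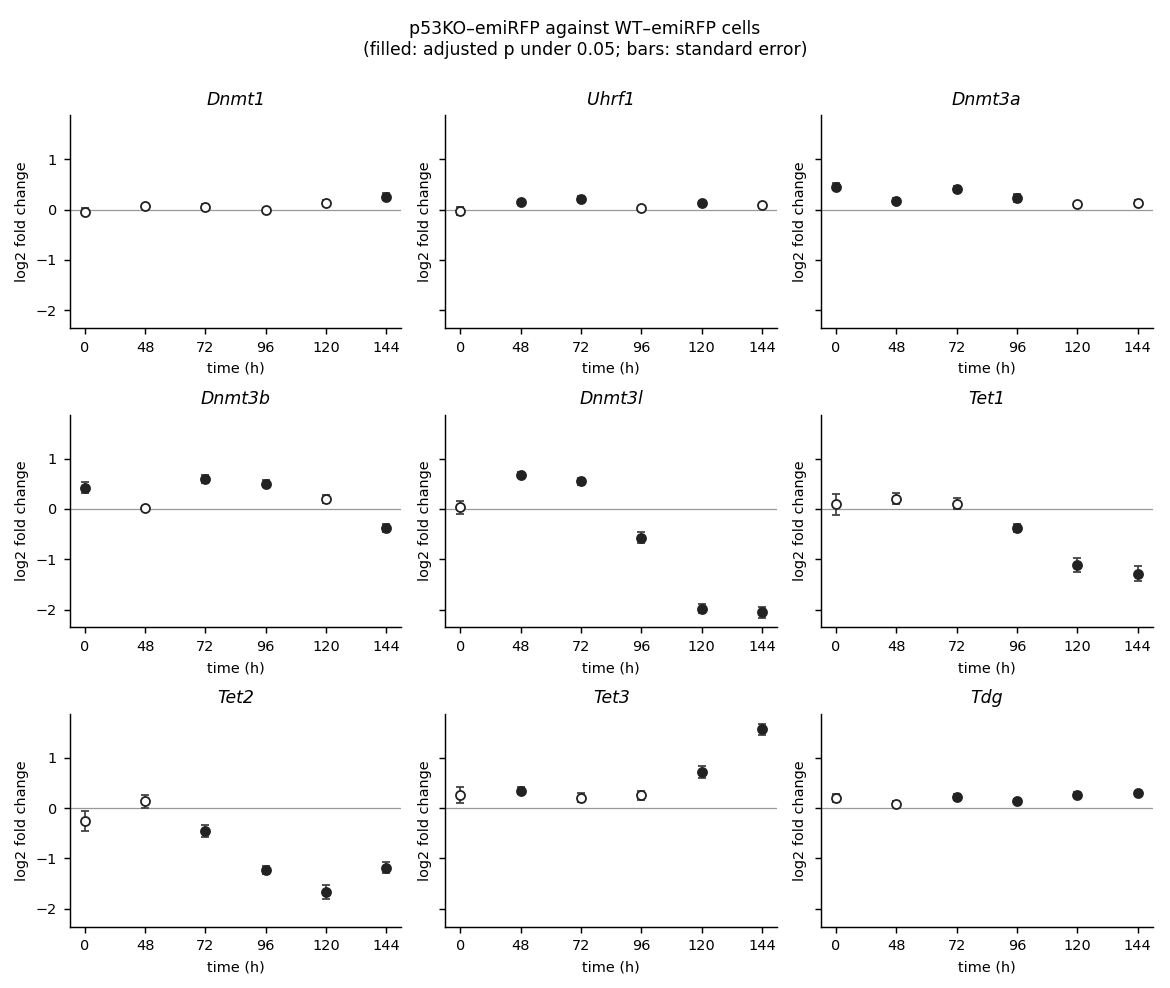
Log2 fold change of p53KO–emiRFP against WT–emiRFP cells (vertical axis) at each time in hours for the 9 genes, with bars of 1 standard error and filled points where the adjusted p was under 0.05. Dnmt3l goes from 0.68 at 48 h to -2.05 at 144 h, Tet1 and Tet2 end at -1.29 and -1.18, and Tet3 ends at 1.57.

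Dnmt3l crossed over. At 48 h it had 11114, 11229 and 10420 normalized counts in the p53KO–emiRFP libraries and 6596, 6935 and 6915 in the WT–emiRFP libraries, a log2 difference of 0.68 (SE 0.05, adjusted p = 8.4e-08). At 72 h the difference was 0.55 (SE 0.07, adjusted p = 3.5e-05). At 96 h the p53KO libraries, with 2596, 2093 and 2099 normalized counts, lay below the WT–emiRFP libraries, with 3631, 3354 and 3096. At 120 h p53KO libraries had 2008, 2007 and 2020 and WT libraries 7062, 8372 and 8295, and at 144 h p53KO libraries had 2375, 2841 and 3362 and WT libraries 11513, 11218 and 12827. The 2 groups compared overlapped at none of these times, and the log2 differences were -0.57 (SE 0.11, adjusted p = 0.0018), -1.98 (SE 0.09, adjusted p = 1.0e-09) and -2.05 (SE 0.11, adjusted p = 1.8e-09). Dnmt3l did not differ detectably between the mES cell clones, with a log2 difference of 0.03 (SE 0.13, adjusted p = 0.95).

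Dnmt3b was higher in p53KO–emiRFP cells before and after its peak, but not at it. At 0 h the p53KO libraries had 26317, 21569 and 19504 normalized counts against 17751, 17494 and 15228, with no overlap and a log2 difference of 0.42 (SE 0.11, adjusted p = 0.044). That call was lost without replicate 2 or 3 and with only the compared groups in the fit. At the 48 h peak the p53KO libraries had 190312, 200238 and 200976 and the WT libraries 196592, 188166 and 196893, with a log2 difference of 0.02 (SE 0.04, adjusted p = 0.73). At 72 h it was 54062, 56901 and 51503 against 35774, 39503 and 32080, a log2 difference of 0.60 (SE 0.08, adjusted p = 4.1e-05), and at 96 h the log2 difference was 0.50 (SE 0.07, adjusted p = 1.1e-04). At 120 h it was 0.19 (SE 0.08, adjusted p = 0.061, 0.0022 with the block), and by 144 h it had turned to -0.38 (SE 0.08, adjusted p = 0.0012).

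Dnmt3a was higher in p53KO–emiRFP cells at the first 4 times. At 0 h the p53KO libraries had 7360, 7250 and 7421 normalized counts and the WT–emiRFP libraries 5280, 5458 and 5444, a log2 difference of 0.45 (SE 0.07, adjusted p = 0.0019), which lost the call without replicate 2 (adjusted p up to 0.19). At 48 h they had 35908, 38532 and 36526 against 32808, 32497 and 32494, a log2 difference of 0.18 (SE 0.05, adjusted p = 0.018). At 72 h they had 13696, 14524 and 13939 against 10508, 11084 and 10241, a log2 difference of 0.41 (SE 0.06, adjusted p = 1.2e-04), and at 96 h the log2 difference was 0.23 (SE 0.07, adjusted p = 0.031). The p53KO libraries did not overlap the WT libraries at any of these times. At 120 and 144 h Dnmt3a had log2 differences of 0.11 and 0.14 (adjusted p = 0.12 and 0.063, and 0.017 and 0.023 with the block). The calls at 48 and 96 h were each lost without either of 2 replicates.

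Dnmt1 and Uhrf1 differed little. The log2 differences of Dnmt1 lay between -0.04 and 0.14 up to 120 h and none passed the test, though those at 48 h (0.07, adjusted p = 0.026) and 120 h (0.14, 0.0032) did with the block. At 144 h Dnmt1 had 26201, 25118 and 26000 normalized counts in p53KO libraries and 22151, 20354 and 21968 in WT libraries, a log2 difference of 0.26 (SE 0.06, adjusted p = 0.0016). Uhrf1 was higher at 48 h by 0.16 (SE 0.04, adjusted p = 0.0098) and at 72 h by 0.21 (SE 0.06, adjusted p = 0.0099), and both calls were lost without replicate 2 or 3. Its call at 120 h, a log2 difference of 0.13 (adjusted p = 0.039), was lost without any 1 of the 3 replicates, with TMM normalization, without the filter on low counts and with only the compared groups in the fit. WT–emiRFP was the lower of the WT clones at 48 and 72 h, and against all 9 WT libraries Uhrf1 overlapped at each of these times, with 34976 to 36991 normalized counts in p53KO libraries against 31835 to 38315 at 48 h and 28813 to 30728 against 25168 to 29994 at 72 h. Of the 16 DNA replication genes, 11 passed at 48 h and 13 at 72 h, each of them higher, while 5 were above and 5 below WT at 144 h, against shares of all genes of 22.1%, 29.1% and 65.4%. Their median log2 differences at these times were 0.16, 0.22 and 0.06, against 0.02, 0.01 and 0.01 for all genes.

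Tet1 and Tet2 came back less in p53KO–emiRFP cells. Tet2 had 436, 383 and 486 normalized counts in p53KO libraries at 72 h and 530, 529 and 715 in WT–emiRFP libraries, a log2 difference of -0.45 (SE 0.12, adjusted p = 0.014, lost without replicate 1 or 2). At 96 h it had 893, 871 and 1016 against 2252, 2026 and 2215, a log2 difference of -1.22 (SE 0.08, adjusted p = 4.0e-08). At 120 h it had 1368, 1340 and 1594 against 3683, 4934 and 4975, a log2 difference of -1.66 (SE 0.14, adjusted p = 3.5e-07), and at 144 h the log2 difference was -1.18 (SE 0.11, adjusted p = 6.3e-07). The groups did not overlap at any of these times. At 0 h the log2 difference of Tet2 was -0.26 (adjusted p = 0.55), and without replicate 1, which holds the library low in long transcripts, it was -0.53 (adjusted p = 7.1e-04).

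Tet1 did not differ detectably up to 72 h, with log2 differences between 0.09 and 0.20 (at 48 h 0.20, adjusted p = 0.22, or 1.7e-04 with the block). Without replicate 1 the difference at 0 h turned from 0.09 to -0.27 (adjusted p = 0.060). At 96 h p53KO libraries had 3948, 4488 and 4380 normalized counts and WT–emiRFP libraries 5704, 5274 and 5708, a log2 difference of -0.38 (SE 0.07, adjusted p = 0.0011, lost with all 69 libraries in 1 fit). At 120 h they had 3789, 3802 and 4250 against 7310, 9000 and 9430, a log2 difference of -1.12 (SE 0.14, adjusted p = 1.3e-05). At 144 h the values were 4346, 5049 and 5731 against 10777, 10800 and 15477, a log2 difference of -1.29 (SE 0.15, adjusted p = 5.2e-06).

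Tet3 went the other way. At 48 h it was higher in p53KO–emiRFP cells by 0.35 (SE 0.07, adjusted p = 0.0029, lost without replicate 2). At 72 and 96 h the log2 differences were 0.21 and 0.26 (adjusted p = 0.080 and 0.056, and 0.0049 and 6.3e-05 with the block). At 120 h it had 4887, 4153 and 5117 normalized counts against 2810, 2628 and 3124, a log2 difference of 0.72 (SE 0.12, adjusted p = 1.3e-04). At 144 h it had 5946, 5531 and 5639 against 2135, 1748 and 1892, a log2 difference of 1.57 (SE 0.11, adjusted p = 2.0e-08), which was the highest level of Tet3 in any of the 23 conditions. Per kb, the makeup of the Tet transcripts therefore differed. At 144 h Tet3 made up 42.6% ± 3.9 of the summed Tet1, Tet2 and Tet3 in p53KO–emiRFP cells against 9.59% ± 1.96 in their WT–emiRFP counterparts, Tet1 40.4% ± 3.1 and 64.8% ± 2.6, and Tet2 17.1% ± 0.9 and 25.6% ± 1.2 (SD, n = 3). WT–mCherry cells were nearer to p53KO–emiRFP cells for Tet3 and Tet1. Their mean shares in WT + WT and WT + p53KO gastruloids were 20.8% and 14.8% for Tet3, 56.1% and 54.4% for Tet1, and 23.1% and 30.9% for Tet2.

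**Figure D3:**
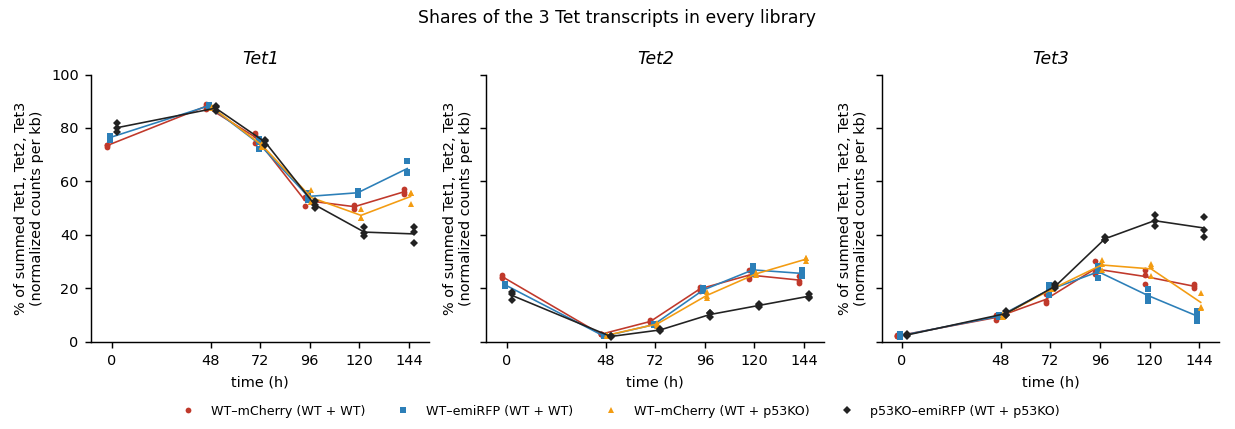
Share in percent of each Tet gene in the sum of Tet1, Tet2 and Tet3 (normalized counts per kb) against time in hours, with 1 point per library and lines through the means of 3 replicates. Tet1 holds most of the sum in all populations at 48 h, and from 96 h on the p53KO–emiRFP libraries (black) lie above all others for Tet3 and below them for Tet2.

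Tdg was slightly higher in p53KO–emiRFP cells. At 120 h the libraries had 3386, 3353 and 3315 normalized counts against 2866, 2789 and 2700, a log2 difference of 0.27 (SE 0.05, adjusted p = 6.0e-04), and at 144 h it was 0.30 (SE 0.05, adjusted p = 7.8e-05). The calls at 72 h (0.22, adjusted p = 0.010) and 96 h (0.14, 0.030) were lost, the former without replicate 1 or 2 and the latter without any 1 replicate, without the filter on low counts and with only the compared groups in the fit, and that at 48 h appeared with the block (0.09, 0.032). With Tdg-ps2 added, the log2 differences at 120 and 144 h were 0.28 and 0.34.

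The markers of pluripotent and germ cells moved with Dnmt3l, Tet1 and Tet2 in this comparison. The counts that follow stand beside shares of all genes of 23.3% at 96 h, 51.0% at 120 h and 65.4% at 144 h, and those of neural and endoderm markers at 144 h lie below that share. All 8 naive markers were lower in p53KO–emiRFP cells at 96, 120 and 144 h, with median log2 differences of -1.28, -2.52 and -2.30. Their summed level at 144 h was 13475 to 20516 normalized counts in p53KO libraries and 81814 to 95577 in WT–emiRFP libraries. All 6 primordial germ cell markers were lower at 120 and 144 h, and their summed level at 144 h was 3467 to 4133 against 13298 to 14073, with none of the 6 at 0. Among them Prdm14 had a log2 difference of -3.43 (SE 0.11, adjusted p = 4.6e-11) and Nanos3 of -2.78 (SE 0.21, adjusted p = 1.0e-07) at 120 h. Of the 7 haematoendothelial markers 5 were lower at 120 h, and 4 of 7 paraxial mesoderm markers were higher at 120 h and all 7 at 144 h. Of the 7 neural markers 4 were higher and 0 lower at 144 h, and of the 6 endoderm markers 0 were higher and 3 lower. Counts of these mesoderm, neural and endoderm lists at 96 h are not given, and the directions may differ there. The endoderm marker Foxa2 was higher at 96 h, by 1.48 (SE 0.25, adjusted p = 5.7e-04). Whether shares of these cell types set the levels of the 9 genes was not tested.

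Germline genes with methylated promoters went with them. Of the genes tested, 12 of 14 were lower at 120 h and 15 of 15 at 144 h, with median log2 differences of -1.66 and -2.07, against 0.05 and 0.01 for all genes. Hormad1 had a log2 difference of -3.10 (SE 0.11, adjusted p = 6.7e-11) and Dazl, an RNA-binding protein of germ cells, of -2.65 (SE 0.11, adjusted p = 4.8e-10) at 120 h. Tex19.1 (-2.42) and Rpl10l (-2.90) were lower at 144 h. Their summed median level was 18124 normalized counts in WT–mCherry and 17448 in WT–emiRFP mES cells, 4610 in WT–emiRFP cells at 72 h and 18098 at 144 h, when p53KO–emiRFP cells had 4641. No methylation was measured in these samples.

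The other genes of the pathway had mixed directions, and their counts stand beside shares of all genes of 22.1% at 48 h, 29.1% at 72 h and 65.4% at 144 h. Of 14 regulators of maintenance and de novo methylation, 6 were higher and 0 lower at 48 h. The counts were 8 and 1 at 72 h, then 6 and 7 at 144 h. Prdm14, which is known to repress Dnmt3b, had the largest difference of them (-3.43 at 120 h, where 51.0% of all genes passed), and Zfp57, a keeper of imprints, had -1.44 (SE 0.12, adjusted p = 1.4e-07) and Dppa3, an inhibitor of Uhrf1, -1.37 (SE 0.11, adjusted p = 1.4e-07) at 144 h. Of 9 readers of methylated DNA, 4 were higher and 1 lower at 144 h, with Zbtb33 at 1.00 (SE 0.13, adjusted p = 1.3e-05) and Zbtb38 at -0.58 (SE 0.08, adjusted p = 1.8e-05). Of 14 genes of base excision repair, 3 were higher and 5 lower at 144 h, among them the p53 target Gadd45a at -1.70 (SE 0.08, adjusted p = 7.3e-10) and the glycosylases Smug1 at 0.94 and Ung at -0.84. Of 14 genes that supply the methyl donor or the cofactor of the Tet enzymes, 7 were higher and 2 lower at 72 h and 2 and 7 at 144 h. Mthfd2 had a log2 difference of 0.99 (SE 0.06, adjusted p = 1.4e-08) at 72 h and Mthfd1 of -0.80 (SE 0.05, adjusted p = 5.1e-09) at 144 h.

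A full p53 response element, a pair of half-sites, was found in none of the 9 promoter windows used and in 0.064% of all windows.

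The change of each step was then compared between p53KO–emiRFP and WT–emiRFP cells in 1 fit of all 69 libraries, and 11 of 45 differences passed. For Dnmt3l the step from 72 to 96 h was lower in p53KO cells by 1.12 on the log2 scale (SE 0.15, adjusted p = 4.6e-07; background 11.0%) and that from 96 to 120 h by 1.41 (SE 0.15, adjusted p = 1.1e-10; background 30.8%). The step from 120 to 144 h differed by -0.08 (SE 0.15) and did not pass. For Tet2 the difference was in the step from 72 to 96 h, at -0.78 (SE 0.23, adjusted p = 0.019), and for Tet1 in that from 96 to 120 h, at -0.74 (SE 0.23, adjusted p = 0.012). Both were lost without replicate 2, and the former also without replicate 1. For Tet3 the steps from 96 to 120 h and from 120 to 144 h were higher by 0.47 (SE 0.16, adjusted p = 0.023, lost without any 1 replicate) and 0.84 (SE 0.16, adjusted p = 9.7e-05; background 16.9%). For Dnmt3b the step from 0 to 48 h was lower in p53KO cells (-0.39, background 5.99%, lost without any 1 replicate) and that from 48 to 72 h higher (0.57, background 1.76%, lost without replicate 1).

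WT–mCherry cells were then compared by their neighbours, beside p53KO–emiRFP against beside WT–emiRFP cells, which asks how the presence of the competing clone goes with the levels in WT cells. No member passed at 48 h (background 0.0736%) or 96 h (3.92%), and Dnmt3l alone passed at 72 h (0.559%) and again at 120 h (5.94%), while 4 passed at 144 h (25.6%). At an unadjusted p under 0.05, edgeR gave Dnmt3l alone at 48 h (1068 genes in all) and Tet2, Dnmt3l and Uhrf1 at 96 h (3639 genes in all), and DESeq2 called Dnmt3l at 48 h and none at 96 h. Same-numbered samples deviated together in all 3 pairs at 48, 72, 96 and 144 h but not at 120 h, and with the replicate number as a block 18 of the 45 tests passed in place of 6. The block added Dnmt3l at 48 h (-0.28, adjusted p = 7.7e-07) and Tet3 at 72 h (0.23, 0.030). At 96 h it added Dnmt3b (0.15, adjusted p = 0.0016), Uhrf1 (-0.15, 0.0033), Tet2 (-0.22, 0.0036) and Dnmt3l (-0.26, 0.012). It further added Tet1 (-0.26), Dnmt3b (-0.17) and Dnmt3a (-0.12) at 120 h, and Dnmt1 (-0.15), Uhrf1 (-0.14) and Dnmt3a (-0.16) at 144 h. Over all genes it raised the calls at 48 h from 13 to 872.

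Dnmt3l was lower beside p53KO cells in the 2 tests at 72 and 120 h. At 72 h it had 2493, 2873 and 2394 normalized counts beside p53KO cells and 4204, 3900 and 3671 beside WT cells, a log2 difference of -0.60 (SE 0.07, adjusted p = 0.0017). At 120 h it had 4331, 4252 and 4147 against 5121, 6724 and 5507, a log2 difference of -0.45 (SE 0.09, adjusted p = 0.0095). The groups overlapped at neither time, and each call was lost without either of 2 replicates. After subtraction of the estimated emiRFP RNA the log2 differences were -0.61 and -0.39 and both passed. At 48, 96 and 144 h the log2 differences were -0.28, -0.26 and -0.11 as counted and -0.29, -0.26 and -0.01 after the subtraction. Markers moved here too, with 3 of 8 naive markers lower at 72 h and 3 at 120 h, and 2 of 6 primordial germ cell markers at each.

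At 144 h Tet3 was lower beside p53KO cells, with 2671, 2177 and 2236 normalized counts against 3328, 2867 and 3843. The log2 difference was -0.50 (SE 0.10, adjusted p = 0.0040), lost without replicate 3. Since p53KO–emiRFP cells had the higher Tet3, subtraction of their estimated RNA moved it to -0.75 (adjusted p = 8.6e-05). Dnmt3b was lower by 0.36 (SE 0.08, adjusted p = 0.0075), with 5997, 6294 and 6038 against 6979, 8273 and 8309 and no overlap. Tet2 was higher by 0.44 (SE 0.11, adjusted p = 0.012), with 4411, 5240 and 5560 against 3531, 3584 and 4094. Both were lost without replicate 2. Tdg was lower by 0.19 (SE 0.05, adjusted p = 0.011), a call lost without any 1 replicate. With the subtraction 7 of the 9 genes passed at 144 h. The share of all genes that passed with it is not given here, and the 25.6% above is for the counts before subtraction. Markers at that time included 6 of 7 neural markers lower, 4 of 7 paraxial mesoderm markers higher, with the other 3 not passing, and 10 of 16 DNA replication genes lower. The summed level of the neural markers was 2769 to 4352 normalized counts beside p53KO cells and 4403 to 5212 beside WT cells. That of the paraxial mesoderm markers was 4720 to 9835 against 6746 to 9823, and 22263 to 30098 in p53KO–emiRFP cells. Marker levels were not recomputed after the subtraction. Their part in these differences was not tested.

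**Figure D4:**
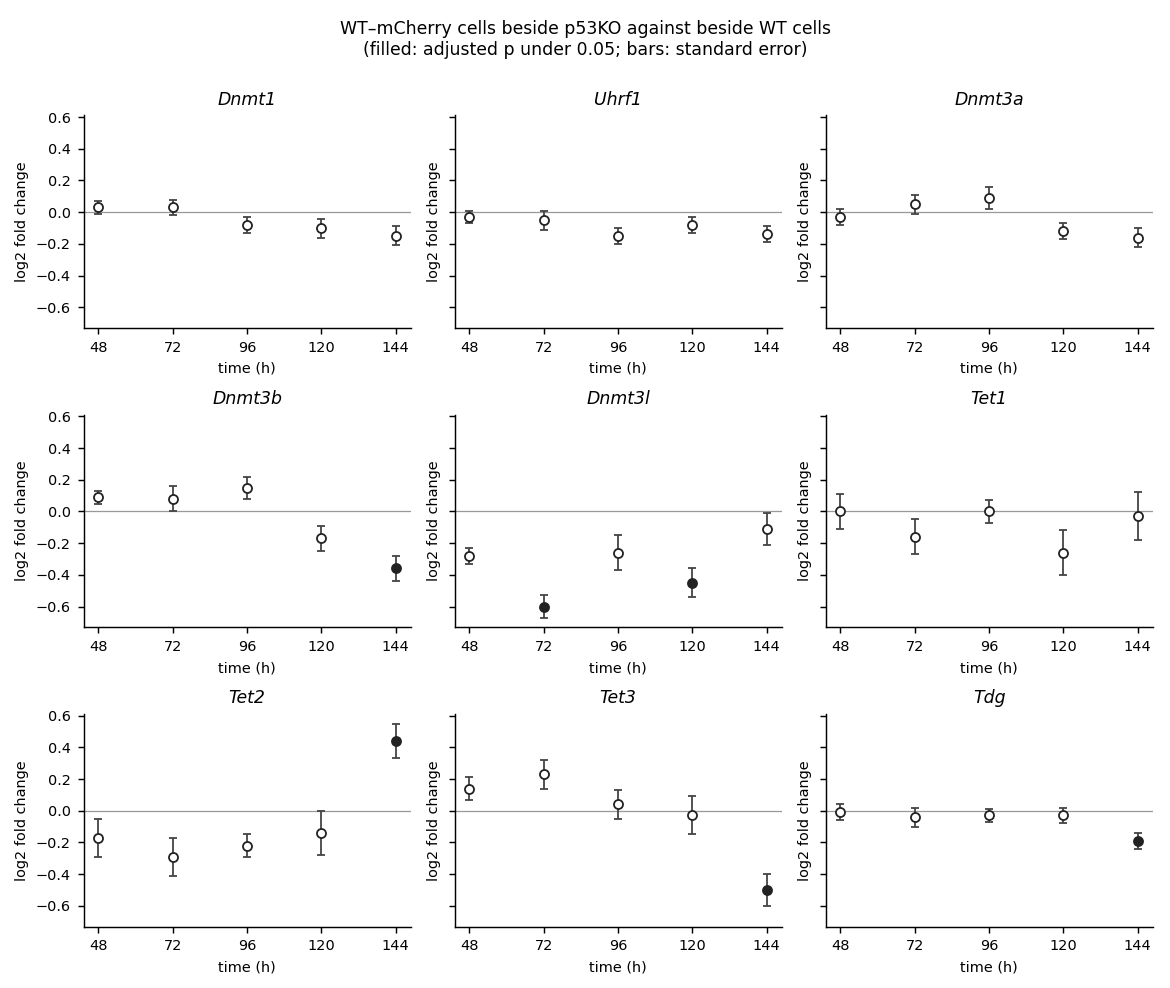
Log2 fold change of WT–mCherry cells with p53KO neighbours over those with WT neighbours (vertical axis) at 48 to 144 h for the 9 genes, with bars of 1 standard error and filled points where the adjusted p was under 0.05. Most points lie within 0.3 of 0, and the 6 filled ones are Dnmt3l at 72 and 120 h and Dnmt3b, Tet2, Tet3 and Tdg at 144 h.

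The 2 WT clones of WT + WT gastruloids give the size of difference that 2 clones of one genotype can show. At 0 h none of the 9 genes differed between WT–emiRFP and WT–mCherry (background 11.1%). Tet2 was under an unadjusted p of 0.05 with edgeR, and DESeq2 called none. With the library low in long transcripts left out the log2 differences of Tet1 and Tet2 were 0.07 and -0.23. At 144 h 4 differed (background 23.8%). WT–emiRFP was higher in Dnmt3l by 0.70 (SE 0.10, adjusted p = 4.0e-04), Tet1 by 0.56 (SE 0.15, adjusted p = 0.016) and Tet2 by 0.50 (SE 0.11, adjusted p = 0.0060), and lower in Tet3 by 0.80 (SE 0.11, adjusted p = 2.1e-04). The Tet1 and Tet2 calls were each lost without at least 1 replicate. The p53KO–emiRFP cells differed from WT–emiRFP cells by more for each of these 4 genes, and both comparisons use the same WT–emiRFP libraries. At that time 7 of 8 naive markers were higher in WT–emiRFP than in WT–mCherry cells and 4 of 7 neural markers lower. Against all 9 WT libraries of the 3 populations at 144 h, the p53KO–emiRFP libraries still lay apart, with 2375 to 3362 normalized counts of Dnmt3l against 6281 to 12827, 4346 to 5731 of Tet1 against 6922 to 15477, 2087 to 2627 of Tet2 against 3531 to 6124, and 5531 to 5946 of Tet3 against 1748 to 3843. Other calls against WT–emiRFP overlapped with the wider set of WT libraries. These were Dnmt3b at 0 h (p53KO down to 19504, WT up to 19781), Tet3 at 48 h (1872 and 1910), Dnmt3l at 72 h (4105 and 4204), Uhrf1 at 48, 72 and 120 h, and Dnmt3b at 144 h, while Dnmt3l at 96 h had p53KO libraries up to 2596 and WT libraries down to 2547. At 48 and 72 h the clones differed at 3 genes each (background 8.90% and 7.64%), Dnmt3l and Uhrf1 being lower in WT–emiRFP at both times. At 48 h the calls of Tet2 and Dnmt3l were lost without replicate 1 or 2, and that of Dnmt3l also with all 69 libraries in 1 fit. At 72 h the calls of Uhrf1 and Dnmt3a were lost without any 1 replicate and with only the compared groups in the fit, and that of Dnmt3l without replicate 1. At 96 h none passed with edgeR or DESeq2 (2.15%), with Dnmt3a and Uhrf1 under an unadjusted p of 0.05. At 120 h Dnmt3l alone was higher (0.45, background 1.22%), a call lost without replicate 1 or 3 and with only the compared groups in the fit. Same-numbered clones deviated together in all pairs at 48, 96, 120 and 144 h, and with a replicate block the calls between the clones went from 11 to 22 of 54. At those times the block added Dnmt1 and Tet1 at 48 h, Dnmt3a, Dnmt3b and Uhrf1 at 96 h, all 3 Tet genes and Dnmt3a at 120 h, and Dnmt3a at 144 h, with absolute log2 differences of at most 0.35.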

How the data were processed

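RNA was sequenced from mES cells at 0 h, which the labels do not call sorted, and from sorted gastruloid cells at the later times. There were 3 replicates per condition, described as independent experiments. The authors trimmed reads with Trim Galore 0.6.7, aligned them with STAR 2.7.11b to GRCm38.p6 and deposited uniquely mapped counts per gene, whose strand setting is not given in the sources used here. Here the counts were tested with edgeR 4.0.16 (R 4.3.3, quasi-likelihood, median-of-ratios size factors, filterByExpr) and Benjamini-Hochberg adjustment over all genes at 0.05. The libraries of 1 time point entered each comparison of groups, and all 69 those of time. DESeq2 1.42.0 was an alternative. The edgeR and DESeq2 fits were tested on simulated data with known changes. There the share of unchanged genes among the calls was above the threshold of 0.05 with both, and larger with DESeq2. Same-numbered p53KO–emiRFP and WT–emiRFP samples deviated together (r of 0.118 to 0.494 in 18 of 18 pairs over 14078 genes), so results with the replicate as a block stand beside those that change. Other comparisons paired at some times only. There the added calls are named for the clones and the neighbours, while those of steps over time are given as counts only. Named genes were the 9 members, up to 4 genes of largest change per list, and the 3 most similar profiles per member. Members and lists were chosen with earlier results of these data known. Positions follow Gencode M21 and promoters RefSeq, both on GRCm38.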

Additional observations from a re-analysis of the deposited data

Results flagged for a closer look

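The step between consecutive times differed between p53KO–emiRFP and WT–emiRFP cells in 11 of 45 tests of the difference itself (edgeR's quasi-likelihood test, adjusted p under the threshold). The share of all genes that passed this test was 5.99% from 0 to 48 h, 1.76% from 48 to 72 h and 11.0% from 72 to 96 h. It was 30.8% from 96 to 120 h, where 4 of the 9 genes passed, and 16.9% from 120 to 144 h, where 2 of the 9 did. Values are the p53KO step minus the WT step on the log2 scale, from a fit of all 69 libraries. From 0 to 48 h Dnmt3b differed by -0.39 (adjusted p = 0.039) and Dnmt3l by 0.65 (0.0036). From 48 to 72 h Dnmt3b differed by 0.57 (0.0032). From 72 to 96 h Tet2 differed by -0.78 (0.019) and Dnmt3l by -1.12 (4.6e-07). From 96 to 120 h Dnmt3b differed by -0.31 (0.049), Tet3 by 0.47 (0.023), Tet1 by -0.74 (0.012) and Dnmt3l by -1.41 (1.1e-10). From 120 to 144 h Dnmt3b differed by -0.58 (3.8e-04) and Tet3 by 0.84 (9.7e-05). The 2 late differences of Dnmt3l and the 2 from 120 to 144 h passed without any 1 replicate, and the other 7 were each lost without at least 1. That of Dnmt3b from 0 to 48 h was also lost with only the compared groups in the fit, a setting not run for the step from 120 to 144 h. Without replicate 1, which holds the WT–emiRFP mES cell library low in long transcripts, Dnmt3b from 0 to 48 h was -0.27 (adjusted p = 0.43) and Dnmt3l 0.56 (0.029).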

How the results depend on the processing

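Of the 129 member tests that passed, none changed direction under any alternative run. All 129 passed with DESeq2 and with the replicate block, 127 with TMM normalization and 121 without a filter on low counts, 105 of 113 passed with only the compared groups in the fit and 46 of 48 with all 69 libraries in 1 fit, and 102, 95 and 107 of 129 passed without replicate 1, 2 or 3, where fewer samples were fitted. For WT–emiRFP against WT–mCherry the count of 11 of 54 became 17 without the filter and 22 with the replicate block, and 4 to 10 with 1 replicate left out. For WT–mCherry by neighbour the count of 6 of 45 became 18 with the replicate block and 1 to 4 with 1 replicate left out. The step differences went from 11 to between 5 and 8 with 1 replicate left out, to 15 with the replicate block and to 16 without the filter. The cause of the changes under the filter was not tested. For p53KO–emiRFP against WT–emiRFP the count stayed between 22 and 40 around 31, for WT steps between 33 and 39 around 38 and for p53KO steps between 28 and 36 around 32, with fits of the compared groups only making 29 and 26 calls of 36 step tests. Those fits left out the step from 120 to 144 h. The replicate numbers of the clones, of the neighbour comparison and of consecutive times did not pair the samples at every time (16 of 18, 14 of 15 and 31 of 45 pairs with a correlation over 0.1). Over all genes the block raised the calls at every time and step. For the neighbours at 48, 72, 96, 120 and 144 h they went from 13, 99, 720, 1122 and 4958 to 872, 402, 3826, 3825 and 7229. For the clones at 0, 48, 72, 96, 120 and 144 h they went from 2033, 1572, 1354, 395, 231 and 4616 to 3179, 5098, 2865, 2927, 2040 and 6573. The 5 step differences went from 1265, 372, 2333, 6503 and 3573 to 2053, 589, 3377, 7489 and 4646. The subtraction of emiRFP RNA and the addition of Tdg-ps2 to Tdg were chosen after seeing the data. The first gave 9 calls by neighbour, with no share of all genes given beside them. The second lost 1 of 14 Tdg calls, the p53KO step from 120 to 144 h (-0.10). Relative counting error is largest where counts are lowest, as for Tet2 at 48 h with 298 to 599 normalized counts in WT libraries.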
